A study of Capra hircus with 6 samples.

Results

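The genes described here are the sterol regulators of the SREBP pathway, the enzymes of cholesterol synthesis, and genes of sterol uptake, transfer, efflux and storage. A list of 33 gene symbols chose them, with no measured value in the rule, and 31 of the 33 were found among the 16262 gene symbols of the deposited tables. IDI1 and CYP51A1 were not analysed here. RNA was sequenced from mesenchymal stem cells of goat (Capra hircus) adipose tissue, which can give rise to fat cells. The 6 libraries form 2 groups, 3 from cells overexpressing TAZ, the Hippo pathway coactivator that WWTR1 encodes, and 3 from control cells given as wild type (WT). All 6 are labelled as under adipogenic differentiation, and by its title the series is about TAZ and fat cell formation. The labels give no promoter or vector for TAZ, no count of clones, no day of differentiation and no origin of the replicates, so p-values rest on a spread among the libraries that may be only technical. The series title names TNF-α, but no sample label does.

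Cells adjust their sterol supply through the SREBP transcription factors, which are made as precursors in the membrane of the endoplasmic reticulum. When sterols are low, SCAP escorts the precursor to the Golgi, where the site-1 and site-2 proteases release the active factor, and it switches on genes of cholesterol and fatty acid synthesis. When sterols are high, the INSIG proteins hold SCAP in the endoplasmic reticulum, while oxysterols activate the liver X receptors, which induce sterol efflux genes. In fat tissue much of the free cholesterol of the body is stored, and SREBP-1 is also known as a factor of fat cell differentiation.

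Levels are given in FPKM, fragments scaled to the gene's length and to the library's total, as deposited. The libraries held 17035481 to 18852822 fragments in the TAZ group and 16935698 to 17483995 in the control group, as worked out from the spacing of low FPKM values. Summed over the 3 libraries of a group, the tested sterol genes had 185 to 22223 fragments. WWTR1, the overexpressed gene, stood at 84.6, 118.1 and 84.2 FPKM in TAZ replicates 1, 2 and 3, against 30.2, 29.9 and 35.9 FPKM in control replicates 1, 2 and 3. All 10 stromal markers listed for the check of the cell type were above the filter, with summed levels of 20020 to 21840 FPKM in the TAZ libraries and 21390 to 22710 FPKM in the controls. Limma called 3 of the 10 higher and 3 lower in TAZ, so the similar sums do not mean similar levels of each marker. These calls are 60.0% of the markers, against 37.9% over all tested genes. Of 6 fat cell markers, 5 were below the filter, among them PPARG and ADIPOQ. The other, CIDEC, was at 17.8 ± 1.29 FPKM in the TAZ libraries and 18.3 ± 1.31 FPKM in the controls (SD, n = 3 each). It did not pass (limma adjusted p = 0.789).

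Of the 31 sterol genes, 30 were tested, and each of these stood at 2.08 FPKM or more in every library. The test was limma's moderated test on log2(FPKM + 1), fitted over all 10750 genes at 1 FPKM or more in at least 3 libraries, with Benjamini-Hochberg adjustment over all of them and a threshold of 0.05. It called 16 sterol genes higher and 2 lower in the TAZ libraries, and 12 did not pass. Over all tested genes it called 37.9%, with 15.7% higher and 22.1% lower. The median log2 fold change, TAZ minus control, was 0.36 over the 30 sterol genes and -0.05 over all tested genes. The 3 TAZ libraries did not overlap with the 3 control libraries for 20 of the 30, 18 of them higher and 2 lower in TAZ, where 48.4% of all tested genes did not overlap, 19.7% higher and 28.7% lower. Fewer cells of a type and less RNA per cell cannot be told apart in such bulk samples. Under median-ratio scaling of the libraries all tested genes split into 2001 higher and 1821 lower, in place of 1693 higher and 2381 lower, and 21 sterol genes were called higher and 2 lower.

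**Figure D1:**
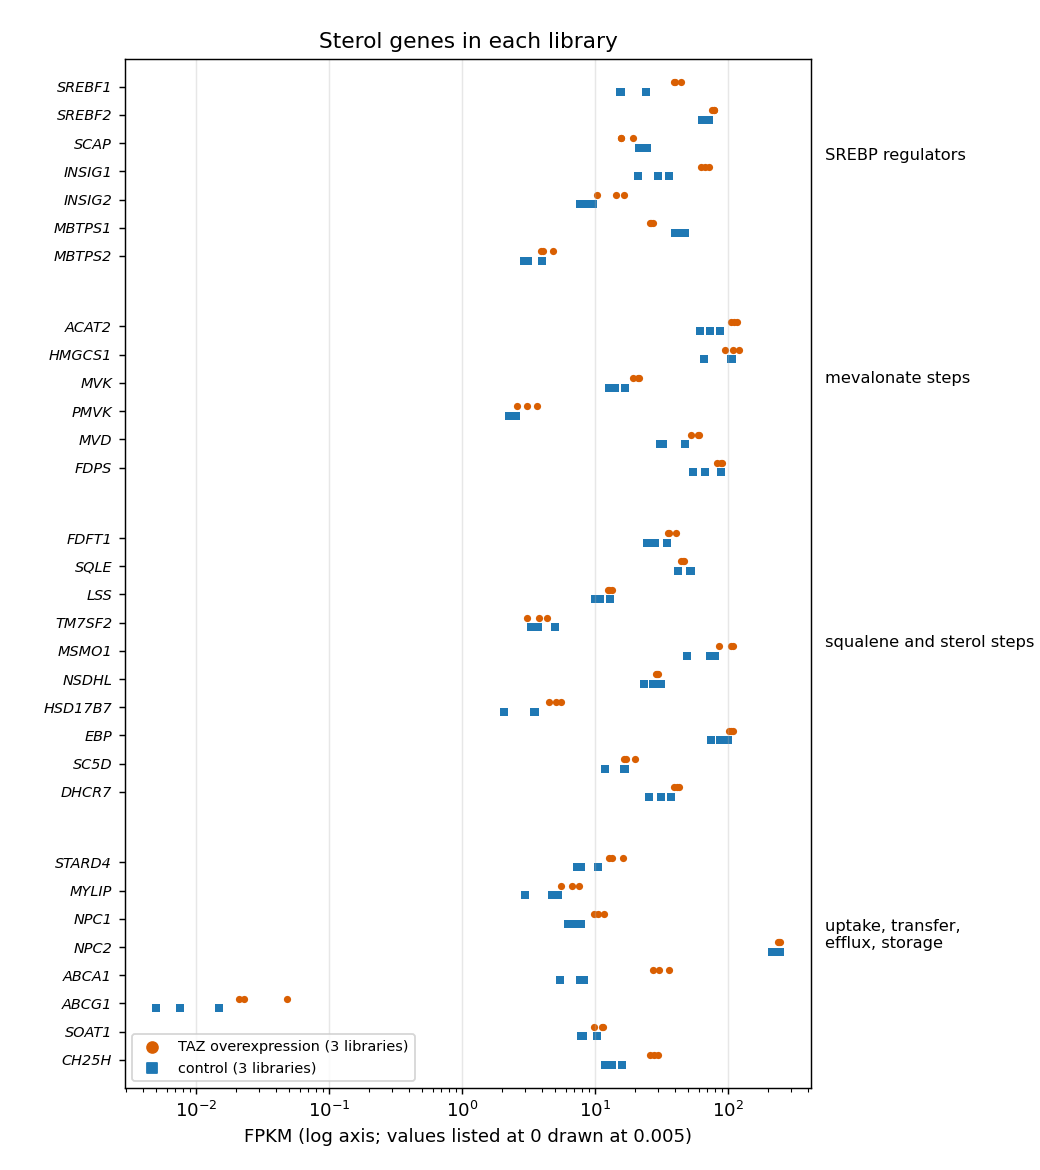
FPKM of the 31 sterol genes in each library on a log axis, with TAZ overexpression as circles above control as squares, grouped by role. NPC2 is the highest gene at 215.7 to 245.9 FPKM and ABCG1 the lowest at 0.05 FPKM or less, and the groups are furthest apart among well measured genes for ABCA1.

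The messenger RNA of SREBF1, which encodes SREBP-1, reached 2.23 times the control level in TAZ cells. It stood at 38.9, 39.9 and 44.3 FPKM in TAZ replicates 1, 2 and 3, against 15.7, 24.1 and 15.4 FPKM in control replicates 1, 2 and 3. Every TAZ library lay above every control, and control replicate 2 was the highest of the controls (log2 fold change 1.14, SE 0.14, limma adjusted p = 3.19e-05). SREBF2, which encodes SREBP-2, the factor most tied to cholesterol synthesis, stood at 78.2, 76.1 and 77.99 FPKM in the TAZ libraries, against 64.1, 71.9 and 68.0 FPKM in the controls. Its groups did not overlap either, but the log2 fold change was 0.19 with a 95% interval of 0.014 to 0.36 before adjustment, and it did not pass (limma adjusted p = 0.0831). It passed under median-ratio scaling and with limma's voom on the recovered fragments, with adjusted p-values of 0.0431 and 0.0369.

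The ratio of SREBF1 to SREBF2 within a library was 0.498, 0.524 and 0.568 in the TAZ libraries and 0.245, 0.335 and 0.227 in the controls. A two-sided exact permutation test of its log2 difference, 0.998, gave p = 0.1, the smallest that 3 against 3 libraries allow. SREBF1 was scaled by the authors to a length of 1218 bases and SREBF2 to 5281, or to a whole multiple of these, as the spacing of the values gives. The order of levels of the 2 genes rests on those lengths, while the change of their ratio does not.

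The SREBP escort and the site-1 protease moved the other way. SCAP, which carries the precursors to the Golgi and senses sterol, stood at 15.6, 19.4 and 15.8 FPKM in the TAZ libraries, against 24.5, 21.5 and 22.5 FPKM in the controls (log2 fold change -0.41, SE 0.102, limma adjusted p = 0.0062). MBTPS1, the site-1 protease, stood at 26.2, 27.1 and 26.0 FPKM in the TAZ libraries, against 47.1, 40.1 and 44.3 FPKM in the controls. The 3 TAZ libraries of MBTPS1 lay close together and far below the lowest control. Its fall was to 0.602 times the control level (log2 fold change -0.71, SE 0.087, limma adjusted p = 3.05e-05). SCAP and MBTPS1 were the 2 sterol genes that fell, and both kept that call in all 14 alternative fits. MBTPS2, the site-2 protease and the lowest of the 7 regulators, had 4.81, 3.91 and 4.03 FPKM in the TAZ libraries, against 2.92, 3.12 and 4.0 FPKM in the controls. Control replicate 3 lay within the TAZ range, and MBTPS2 did not pass (log2 fold change 0.28, limma adjusted p = 0.0782). It passed without control replicate 3, under median-ratio scaling and with voom, at adjusted p-values of 0.014, 0.0423 and 0.0307.

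Both INSIG genes, whose proteins retain SCAP in the endoplasmic reticulum, rose. INSIG1, itself a classical SREBP target in other mammals, stood at 66.8, 72.3 and 62.8 FPKM in the TAZ libraries, against 21.2, 36.1 and 29.8 FPKM in the controls. The highest control was far below the lowest TAZ library, and the level was 2.32 times that of the controls (log2 fold change 1.21, SE 0.147, limma adjusted p = 2.71e-05). INSIG2 stood at 16.5, 10.3 and 14.3 FPKM in the TAZ libraries, against 7.74, 8.43 and 9.70 FPKM in the controls. TAZ replicate 2 came close to the highest control, without overlap (log2 fold change 0.59, SE 0.143, limma adjusted p = 0.00572). The ratio of INSIG1 to INSIG2 was 4.05, 7.05 and 4.39 in the TAZ libraries and 2.74, 4.28 and 3.07 in the controls. These overlap, and the log2 difference of 0.60 did not pass a two-sided exact permutation test (p = 0.2, where 0.1 is the smallest possible).

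**Figure D2:**
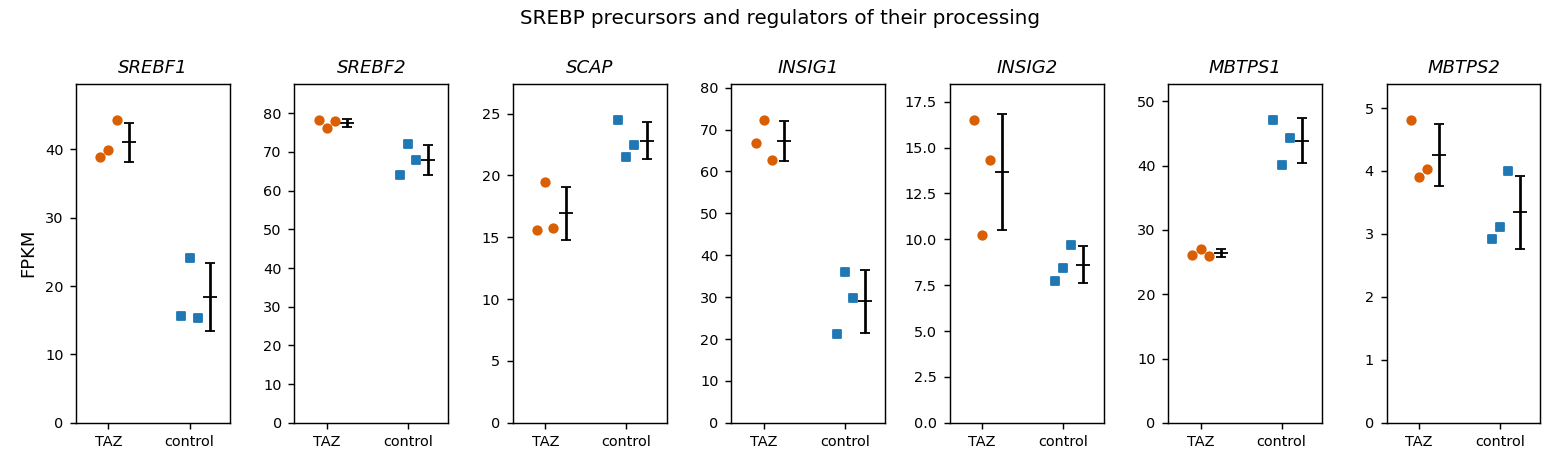
FPKM of the 7 SREBP regulators, with 1 point for each library, TAZ left of control, and the mean with SD beside the points. SREBF1, INSIG1 and INSIG2 lie higher in the TAZ libraries and SCAP and MBTPS1 lower, whereas MBTPS2 overlaps between the groups.

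Enzymes of cholesterol synthesis rose in part. Of 16 tested enzymes from acetoacetyl-CoA to cholesterol, limma called 8 higher and 0 lower. Over all tested genes it called 15.7% higher and 22.1% lower. Voom called 9 enzymes higher and 0 lower, and 2043 higher and 1783 lower of 10749 genes. At an unadjusted p under 0.05 there were 10 enzymes higher and 0 lower. The share of all genes at that unadjusted threshold was not worked out, here or for the lists below. The log2 fold change was above 0 for 14 and below 0 for 2, with a median of 0.31. On this scale the largest of these differences, that of MVD, was smaller than those of SREBF1 and INSIG1.

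In the mevalonate steps, ACAT2, the cytosolic thiolase that joins 2 acetyl-CoA, stood at 104.4, 116.1 and 110.0 FPKM in the TAZ libraries, against 61.6, 86.5 and 72.7 FPKM in the controls (log2 fold change 0.59, SE 0.111, limma adjusted p = 0.00105). HMGCS1, the HMG-CoA synthase that follows it, had 121.7, 95.4 and 109.5 FPKM in the TAZ libraries and 66.0, 108.0 and 105.1 FPKM in the controls. Controls 2 and 3 of HMGCS1 lay within the TAZ range and control 1 far below it, and the gene did not pass (log2 fold change 0.25, 95% interval -0.09 to 0.59, limma adjusted p = 0.231). MVK, mevalonate kinase, stood at 19.3, 21.1 and 21.5 FPKM in the TAZ libraries, against 14.2, 16.9 and 12.7 FPKM in the controls (log2 fold change 0.48, SE 0.106, limma adjusted p = 0.00317). MVD, which decarboxylates mevalonate diphosphate to the isoprene unit, stood at 53.0, 60.0 and 59.1 FPKM in the TAZ libraries, against 30.9, 47.6 and 32.4 FPKM in the controls. Its level was 1.55 times that of the controls, without overlap (log2 fold change 0.65, SE 0.135, limma adjusted p = 0.00226).

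Neither PMVK nor FDPS passed. PMVK, phosphomevalonate kinase, was the least abundant enzyme of the mevalonate steps at 3.11 ± 0.518 FPKM in the TAZ libraries and 2.37 ± 0.17 FPKM in the controls (SD, n = 3 each; limma adjusted p = 0.0612). FDPS, which makes farnesyl diphosphate, stood at 82.7, 89.2 and 90.6 FPKM in the TAZ libraries, against 54.1, 88.8 and 66.7 FPKM in the controls (limma adjusted p = 0.0629). Control replicate 2 lay within the TAZ range of FDPS, and without that library the gene passed at an adjusted p of 0.00163. PMVK passed without TAZ replicate 3 or control replicate 3, at 0.0299 and 0.045, and both genes passed under median-ratio scaling, at 0.0362 and 0.0498. FDPS also passed with voom, at 0.0396.

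From squalene onward, limma called 5 of 10 tested enzymes higher and 0 lower, where it called 15.7% of all tested genes higher. FDFT1, squalene synthase, which commits the pathway to sterols, stood at 35.4, 35.9 and 40.8 FPKM in the TAZ libraries, against 24.6, 34.6 and 28.1 FPKM in the controls (log2 fold change 0.36, SE 0.115, limma adjusted p = 0.0249). MSMO1, the C4 methyl oxidase, stood at 109.4, 85.6 and 104.8 FPKM in the TAZ libraries, against 48.8, 79.7 and 73.7 FPKM in the controls (log2 fold change 0.58, SE 0.154, limma adjusted p = 0.00944). HSD17B7, the 3-keto reductase of the same demethylation, stood at 5.56, 4.47 and 5.11 FPKM in the TAZ libraries, against 2.08, 3.47 and 3.56 FPKM in the controls. At 1.66 times the control level it had the largest ratio of the enzymes (log2 fold change 0.60, SE 0.143, limma adjusted p = 0.00502).

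EBP, the sterol isomerase, stood at 102.2, 105.6 and 108.2 FPKM in the TAZ libraries, against 74.8, 99.6 and 87.0 FPKM in the controls. This was the rise closest to the threshold (log2 fold change 0.28, SE 0.10, limma adjusted p = 0.0423). DHCR7, which completes cholesterol from 7-dehydrocholesterol, stood at 42.5, 39.1 and 41.4 FPKM in the TAZ libraries, against 25.4, 37.2 and 31.2 FPKM in the controls (log2 fold change 0.40, SE 0.117, limma adjusted p = 0.0177). In FDFT1, EBP and DHCR7 control replicate 2 came close to the lowest TAZ library, with no overlap.

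The other 5 enzymes after squalene synthesis did not pass, and their groups overlapped. SQLE, squalene epoxidase, a known control point of the pathway, was at 45.7 ± 1.15 FPKM in the TAZ libraries and 49.0 ± 6.18 FPKM in the controls (SD, n = 3 each), and was among the 2 enzymes with a log2 fold change below 0 (-0.092, 95% interval -0.303 to 0.119). That interval overlaps the 95% intervals of EBP (0.063 to 0.496) and FDFT1 (0.114 to 0.612). It lies below those of the other enzymes called higher. A difference between SQLE and these enzymes was not tested. LSS, lanosterol synthase, was at 12.9 ± 0.472 FPKM in the TAZ libraries and 11.3 ± 1.43 FPKM in the controls, and SC5D, the C5 desaturase, at 17.8 ± 1.75 FPKM in the TAZ libraries and 15.1 ± 2.73 FPKM in the controls. NSDHL, the C4 decarboxylating dehydrogenase, was at 29.1 ± 0.449 FPKM in the TAZ libraries and 27.3 ± 4.07 FPKM in the controls. TM7SF2, a C14 sterol reductase, was the other with a value below 0, at 3.73 ± 0.628 FPKM in the TAZ libraries and 4.01 ± 0.915 FPKM in the controls. The limma adjusted p-values of these 5 ran from 0.154 for SC5D to 0.697 for TM7SF2.

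**Figure D3:**
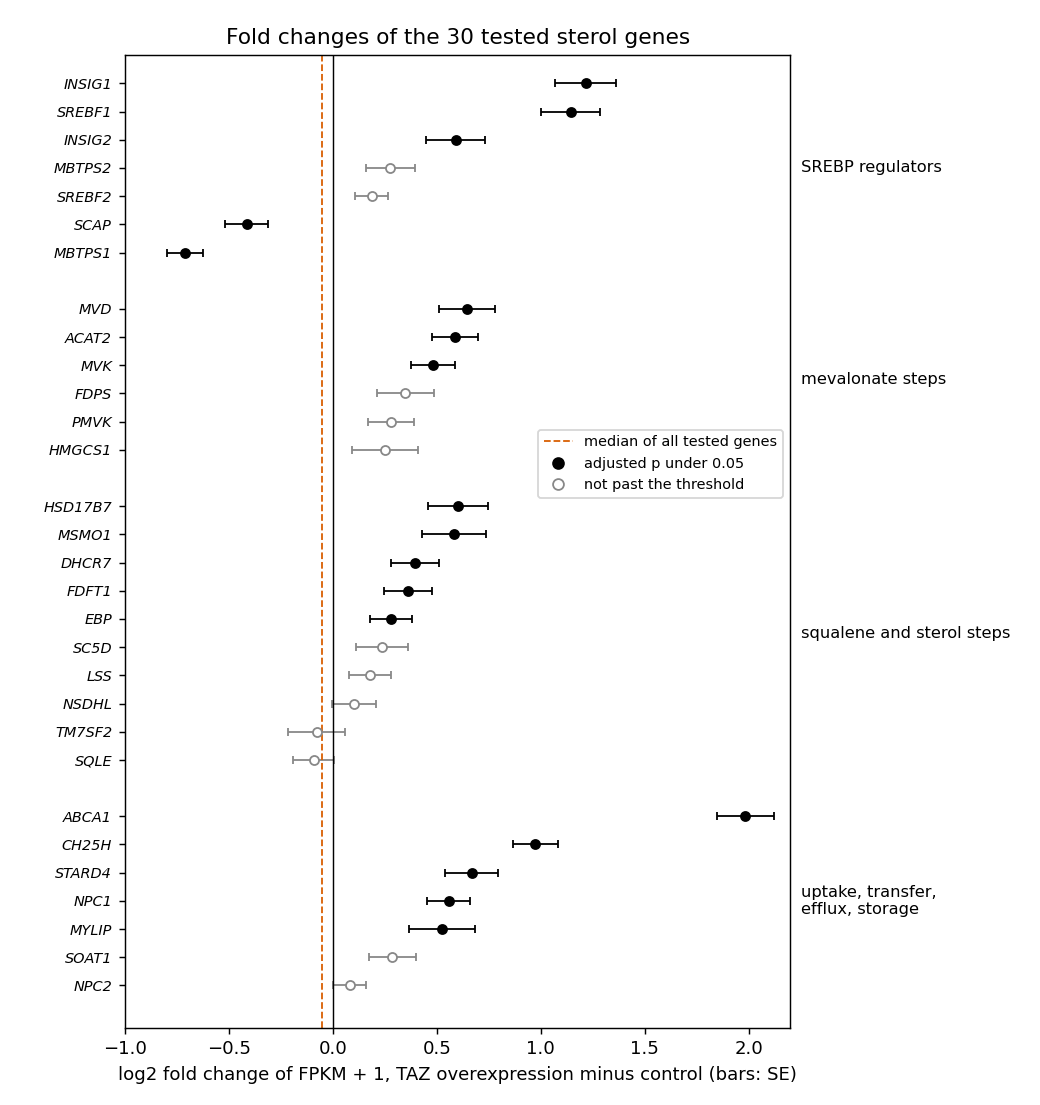
Log2 fold change of FPKM + 1 with its SE for the 30 tested sterol genes, TAZ minus control, by role and in falling order within each role. Filled points passed an adjusted p of 0.05, and all lie right of 0 except SCAP and MBTPS1, while the dashed line marks the median of all tested genes at -0.05.

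The control libraries differed among themselves in these enzymes. Set against the mean of the 3 controls, the median level of the 16 enzymes was 1.31, 1.24 and 1.27 in TAZ replicates 1, 2 and 3, and 0.841, 1.16 and 0.996 in control replicates 1, 2 and 3. Control replicate 1 was the lowest of all 6 libraries for 13 of the 16 enzymes. The summed level of the 16 was 792.9, 762.7 and 801.1 FPKM in the TAZ libraries, against 495.6, 722.5 and 626.8 FPKM in the controls, so the sums did not overlap, and control replicate 2 came nearest to the TAZ libraries.

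Without control replicate 1, limma called 12 sterol genes higher in place of 16. FDFT1, EBP, DHCR7 and MYLIP lost the call, at adjusted p-values of 0.108, 0.189, 0.0748 and 0.0729. EBP lost it in 8 of the 14 alternative fits, among them each fit without 1 TAZ library, at adjusted p-values of 0.0628, 0.09 and 0.11 without TAZ replicates 1, 2 and 3. FDFT1 also lost it without TAZ replicate 3 (0.0932) and MYLIP without TAZ replicate 1 (0.0582).

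**Figure D4:**
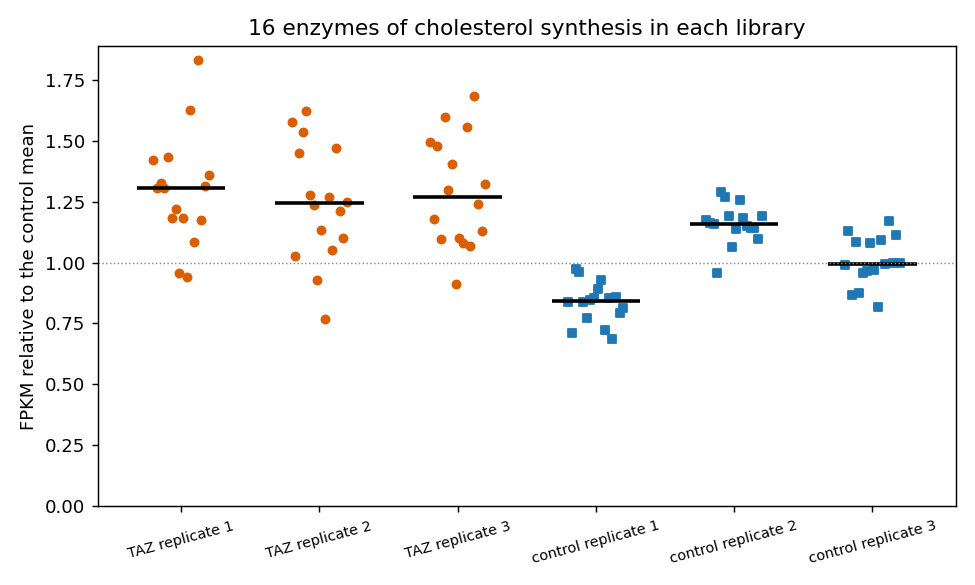
Level of each of 16 cholesterol synthesis enzymes in each library, as FPKM divided by the gene's mean over the 3 controls, with 1 point for each enzyme and a bar at the median. The medians are 1.31, 1.24 and 1.27 in the TAZ libraries, and control replicate 1, at 0.841, lies below the other controls.

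A sterol efflux gene, ABCA1, showed the largest difference among the tested genes of the list. ABCA1, the transporter that loads cholesterol onto apolipoprotein A-I and a classical liver X receptor target, stood at 35.7, 30.2 and 27.1 FPKM in TAZ replicates 1, 2 and 3, against 5.44, 7.72 and 8.28 FPKM in control replicates 1, 2 and 3. The lowest TAZ library was far above the highest control, and the level was 4.34 times that of the controls (log2 fold change 1.98, SE 0.138, limma adjusted p = 1.27e-07). By log2 fold change ABCA1 ranked 131 of the 10750 tested genes. ABCG1, a transporter that hands cholesterol to HDL and is another liver X receptor target, was below the filter. It had 3, 7 and 3 fragments in the TAZ libraries and 0, 1 and 2 in the controls, without overlap. A count of 0 allows up to 3 fragments in a library, which is 0.0223 FPKM in control replicate 1, and all controls were at or under that limit, so no fold is given. Fitted with no filter on low values, ABCG1 did not pass (limma adjusted p = 0.158).

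CH25H, which makes the signalling oxysterol 25-hydroxycholesterol and is known as an interferon-stimulated gene in macrophages, reached 2.02 times the control level in TAZ cells. It stood at 27.9, 25.9 and 29.7 FPKM in the TAZ libraries, against 11.9, 15.96 and 13.4 FPKM in the controls, with no overlap (log2 fold change 0.97, SE 0.107, limma adjusted p = 1.19e-05). Limma called all 6 interferon response markers that were found, of 8 listed, higher as well. Over all tested genes it called 15.7% higher. RSAD2, among the 6, met the filter only through the TAZ libraries, so the filter favoured its call. It had 0.155, 0.0532 and 0.0869 FPKM in control replicates 1, 2 and 3. Summed levels of the 6 were 2473, 2624 and 2725 FPKM in the TAZ libraries and 56.6, 57.5 and 62.0 FPKM in the controls. MX1 and ISG15 made up most of the TAZ sums, at means of 1105 and 885.4 FPKM. The part of these markers in the levels of CH25H and ABCA1 was not tested. Of 7 leukocyte and macrophage markers, 5 were below the filter, and PTPRC, the pan-leukocyte marker, was listed at 0 in all 6 libraries. CSF1R, which marks macrophages, was at 0.0357 ± 0.00544 FPKM in the TAZ libraries and 0.0353 ± 0.0191 FPKM in the controls (SD, n = 3 each). CD14 rose to 24.2 ± 0.421 FPKM in the TAZ libraries, against 9.58 ± 1.38 FPKM in the controls, and CD68 fell to 2.86 ± 0.333 FPKM, against 4.53 ± 0.437 FPKM in the controls, so the summed level of the list, 26.7 to 27.7 FPKM in TAZ and 13.4 to 16.4 FPKM in the controls, rested on CD14.

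**Figure D5:**
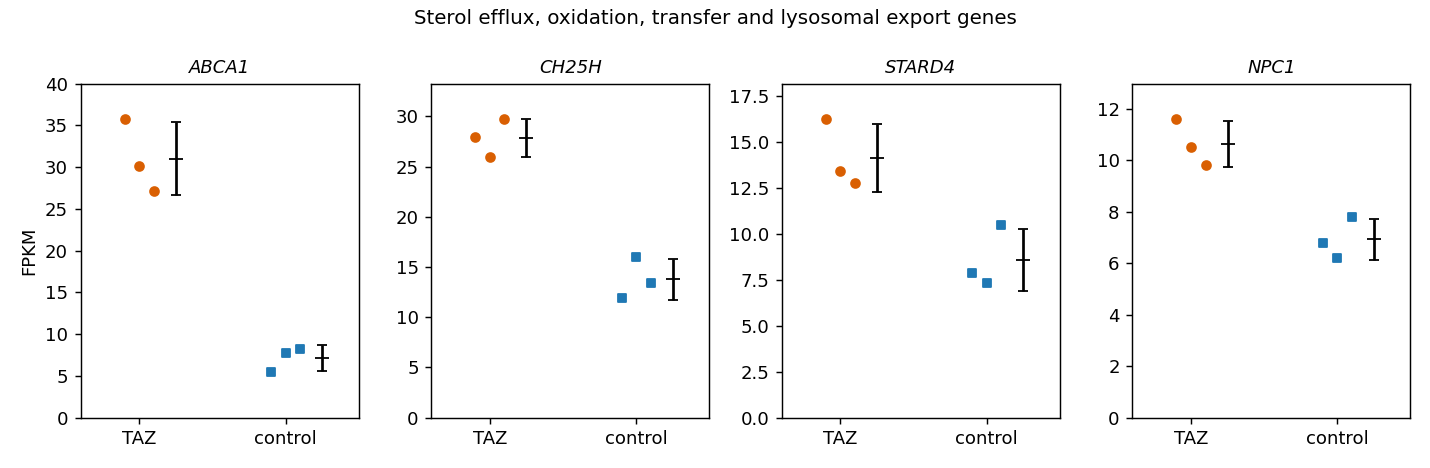
FPKM of ABCA1, CH25H, STARD4 and NPC1 in each library, TAZ left of control, with the mean and SD beside the points. All 4 genes lie higher in the TAZ libraries without overlap, with ABCA1 at 27.1 to 35.7 FPKM in TAZ and 5.44 to 8.28 FPKM in the controls.

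Among genes of sterol transfer, STARD4, a soluble carrier that moves sterol between membranes, stood at 16.2, 13.4 and 12.7 FPKM in the TAZ libraries, against 7.89, 7.33 and 10.5 FPKM in the controls (log2 fold change 0.67, SE 0.129, limma adjusted p = 0.00127). NPC1, the membrane protein that exports cholesterol from lysosomes, stood at 11.6, 10.5 and 9.83 FPKM in the TAZ libraries, against 6.78, 6.22 and 7.78 FPKM in the controls (log2 fold change 0.56, SE 0.104, limma adjusted p = 0.00103). Neither gene overlapped between the groups. NPC2, the soluble lysosomal partner that hands cholesterol to NPC1, was the most abundant member at 240.5 ± 3.44 FPKM in the TAZ libraries and 227.7 ± 16.02 FPKM in the controls (SD, n = 3 each), and did not pass. Its log2 fold change was 0.081 with a 95% interval of -0.094 to 0.256, where that of NPC1 was 0.331 to 0.782. A difference between NPC1 and NPC2 was not tested.

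MYLIP, a ubiquitin ligase that removes lipoprotein receptors and is induced by liver X receptors, stood at 7.58, 5.54 and 6.69 FPKM in the TAZ libraries, against 2.98, 5.30 and 4.77 FPKM in the controls. TAZ replicate 2 was only slightly above control replicate 2 (log2 fold change 0.53, SE 0.158, limma adjusted p = 0.0188). SOAT1, which esterifies cholesterol for storage, stood at 11.5, 11.3 and 9.79 FPKM in the TAZ libraries, against 7.78, 8.11 and 10.4 FPKM in the controls. Control replicate 3 lay within the TAZ range, and SOAT1 did not pass (log2 fold change 0.29, limma adjusted p = 0.0651). It passed without control replicate 3, under median-ratio scaling and with voom, at adjusted p-values of 0.00673, 0.0329 and 0.0271.

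Further genes around the pathway were taken from lists of 62 genes, of which 54 were tested. Limma called 21 of them higher and 4 lower, which is 46.3% against 37.9% over all tested genes, with a median log2 fold change of 0.13. A list on control of SREBP processing or sterol enzyme breakdown in the endoplasmic reticulum had 11 tested genes. Of these, 1 was higher and 0 lower by limma. This is 9.09% called, against 37.9% over all tested genes. The counts were the same at an unadjusted p under 0.05 and with voom. The 1 was TMEM97, a sterol-responsive membrane protein that binds NPC1, at 61.1 ± 2.19 FPKM in the TAZ libraries and 37.2 ± 3.40 FPKM in the controls (SD, n = 3 each; limma adjusted p = 4.08e-05). The other 10, which include genes of ubiquitin ligases and erlins, did not pass, and their log2 fold changes lay between -0.13 and 0.19.

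Of 7 tested genes of liver X receptors and their partners, limma called 2 higher and 1 lower, and 4 did not pass. This is 42.9% called, against 37.9% over all tested genes. The log2 fold change was above 0 for 2 and below 0 for 5. The liver X receptors themselves were not higher. NR1H3, which encodes LXR-alpha, was lower at 7.70 ± 0.976 FPKM in the TAZ libraries and 10.3 ± 0.927 FPKM in the controls (SD, n = 3 each; log2 fold change -0.38, limma adjusted p = 0.0153). That call was lost without TAZ replicate 1 or control replicate 1, at adjusted p-values of 0.0737 and 0.0583. NR1H2, which encodes LXR-beta, did not pass at 23.6 ± 3.26 FPKM in the TAZ libraries and 27.2 ± 2.61 FPKM in the controls. LPCAT3, a phospholipid-remodelling enzyme and known liver X receptor target, rose to 83.8 ± 1.36 FPKM in the TAZ libraries, against 36.8 ± 4.66 FPKM in the controls (log2 fold change 1.17, limma adjusted p = 6.17e-07). NCOA1, a nuclear receptor coactivator, rose to 11.1 ± 0.843 FPKM, against 6.72 ± 0.685 FPKM in the controls.

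In the branches of the mevalonate pathway that do not lead to sterols, 3 of 8 tested genes rose by limma and 0 fell, with 4 and 0 at an unadjusted p under 0.05 and with voom. These were NUS1, a subunit of the dolichol-making prenyltransferase, at 1.35 times the control level, PDSS2, of ubiquinone side chain synthesis, at 1.31 times and GGPS1, which makes geranylgeranyl diphosphate, at 1.25 times. The 3 calls are 37.5% of the 8 genes, near the 37.9% called over all tested genes. PDSS2 lost the call in 6 of 13 alternative fits, at adjusted p-values up to 0.111, and GGPS1 in 4 of 14, at up to 0.112.

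Lipoprotein uptake, lysosomal release and storage genes gave 7 higher and 3 lower of 18 tested, or 55.6% called. Over all tested genes limma called 37.9%, with 15.7% higher and 22.1% lower. VLDLR, a receptor for triglyceride-rich lipoproteins, rose to 10.02 ± 0.399 FPKM in the TAZ libraries, against 3.91 ± 0.557 FPKM in the controls (SD, n = 3 each; log2 fold change 1.17, limma adjusted p = 1.63e-06). LIPA, the lysosomal acid lipase that frees cholesterol from its esters, rose to 110.8 ± 11.2 FPKM in the TAZ libraries, against 57.5 ± 3.71 FPKM in the controls (log2 fold change 0.93, limma adjusted p = 4.95e-06). GRAMD1C, of the family that carries cholesterol from the plasma membrane, was 2.05 times as high at a low level. It had 2.16, 1.85 and 1.85 FPKM in the TAZ libraries, against 0.875, 0.849 and 1.13 FPKM in the controls. It met the filter only because all TAZ libraries reached 1 FPKM, which favoured its call, and it is counted among the 7 higher. STARD5 fell to 0.668 times, OSBPL10 to 0.716 times and OSBPL2 to 0.833 times the control level, all 3 being genes of lipid transfer proteins. The call of OSBPL2 was lost in 8 of 14 alternative fits.

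Besides CH25H, a further list of 5 sterol oxidation genes had 1 tested gene, HSD3B7 of bile acid and oxysterol metabolism, at 75.1 ± 6.54 FPKM in the TAZ libraries and 40.5 ± 3.55 FPKM in the controls (SD, n = 3 each; log2 fold change 0.87, limma adjusted p = 1.03e-05). Of 9 fatty acid genes known as SREBP-1 targets, limma called 7 higher and 0 lower, or 77.8% against 37.9% over all tested genes. The counts were 7 and 1 at an unadjusted p under 0.05 and 7 and 0 with voom. The median log2 fold change of the 9 genes was 0.88, against 0.31 for the 16 cholesterol enzymes. A difference between these lists was not tested. FADS2, FADS1 and SCD led at 5.90, 2.93 and 4.38 times the control level. ACSS2, which makes acetyl-CoA from acetate, was 2.53 times as high, while ACACA, acetyl-CoA carboxylase, did not pass at 9.94 ± 0.40 FPKM in the TAZ libraries and 9.52 ± 0.488 FPKM in the controls.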

How the data were processed

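Per the submitters' processing notes, the authors used fastp, HISAT2 and HTSeq, with no versions, and they deposited FPKM values in 1 table per group with 1 column per library. No genome build or strand setting was stated in the labels, notes or files, so positions are left out and reads shared between overlapping genes cannot be told apart. Of 16285 rows, 23 had a date in place of a symbol and were left out, and all other symbols were found in the RefSeq table of assembly ARS1.2, used for names only. Groups came from the sample titles.

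Values were taken as log2(FPKM + 1), which understates the change of low genes, keeping genes for which 3 libraries or more reached 1 FPKM, and tested two-sided with limma 3.58.1 in R 4.3.3 (empirical Bayes with a mean-variance trend). Ratios of levels use mean FPKM with nothing added. Fragment numbers were recovered from the steps of the FPKM values for 99.99% of rows above 0, within 0.02 of a whole number, or of a multiple of 0.5 for deep genes; intervals and limits from them cover counting error only. They served for depth and for limma's voom with TMM scaling. The recovery and the fits were tested on simulated data. No 2 libraries agreed within sampling noise, at a chi-square per degree of freedom of 10.41 or more.

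The members and lists were chosen with earlier results of these data known. All members are reported. From each other list, up to 3 called genes with the lowest adjusted p in each direction were named. CD14, CD68, CSF1R, PTPRC, PPARG, ADIPOQ, CIDEC, NR1H2, ACSS2 and ACACA were named after their values were seen. Other settings tried were no filter, a mean of 5 FPKM or more, pseudocounts of 0.1 and 0.5, median-ratio scaling, no trend, the replicate number as a block, voom, and leaving out each library.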

Additional observations from a re-analysis of the deposited data

How the results depend on the processing

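The 16 higher calls among the sterol genes ranged from 11 with no filter to 21 with median-ratio scaling, and from 12 to 18 when 1 library was left out, while the 2 lower calls held in all 14 alternatives. With no filter FDFT1, MSMO1, EBP, DHCR7 and MYLIP lost the call, and the cause was not tested. The 4 lower calls among the other pathway genes were 2 to 3 when 1 library was left out. The sterol genes whose log2 fold change took the other sign had not passed: TM7SF2 ran from -0.183 to 0.065 when 1 library was left out, above 0 without TAZ replicate 2 (0.025) or control replicate 2, and NSDHL from -0.0031 without control replicate 1 to 0.205 without control replicate 2. Same-numbered libraries did not deviate together (correlations of -0.436, -0.112 and -0.403 for numbers 1, 2 and 3). None correlated best with its own number. The highest correlation of TAZ replicate 1 was with control replicate 3 (0.691). Those of TAZ replicates 2 and 3 were with control replicates 1 and 2 (0.534 and 0.552). Deviations from a mean of only 3 libraries cannot show whether samples are paired, and a pairing under other numbers was not tested. The replicate block gave 16 sterol genes higher and 2 lower, with FDPS gained and EBP lost, and 3512 calls over all genes in place of 4074. The log2 difference of the SREBF1 to SREBF2 ratio was 0.956 with 1 added to each FPKM and 0.885 to 1.17 when 1 library was left out, and that of INSIG1 to INSIG2 was 0.624 and 0.353 to 0.787. ABCG1, with 13 fragments in the TAZ libraries and 3 in the controls, was below the filter and did not pass without it (adjusted p = 0.158).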
